A study of Mus musculus with 2 samples.

Results

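Open chromatin was described at the 9 genes whose proteins form or border the TAL1, LMO2 and LDB1 transcription complex: Tal1, Lyl1, Lmo2, Lmo4, Ldb1, Tcf3, Tcf12, Cbfa2t2 and Cbfa2t3. They were chosen by name, for the known role of their proteins, out of 21911 protein-coding genes of the GENCODE vM21 annotation of mm10 (GRCm38), and all 9 were found in it. DNase-seq, which sequences the DNA ends left where the enzyme DNase I cuts accessible chromatin, had been run on liver tissue of mouse embryos at day 13.5. The 2 libraries, biological replicates 1 and 2 of 1 group, came from different biosamples listed under the same donor. Both are labelled C57BL/6N,129 by strain, with "LCR deletion" and "HET globin mutation" as the alleles they carried. How far that deletion reaches, which globin gene was altered and how single embryos were genotyped is left unstated there and is not analysed here. There was no control group, sex was not collected, and a virgin mating status was recorded. No comparison of genotypes was therefore possible, and what follows compares genes and sites within these 2 libraries.

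TAL1 is a basic helix-loop-helix (bHLH) protein that binds DNA as a dimer with an E protein, and LYL1 is its close relative. LMO2, which has LIM domains but does not bind DNA, holds the TAL1 dimer together with a GATA factor and with LDB1, a scaffold that dimerises and can bring distant enhancers to promoters. In red cell precursors, the main cells of the fetal liver at this stage, this complex with GATA1 drives erythroid genes, while the corepressor ETO2, the product of Cbfa2t3, restrains it. A DNA site bound by the whole complex typically joins part of an E-box to a GATA motif at a short fixed distance, here called the GATA-E-box composite.

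A peak was counted for a gene's promoter when it lay within 1 kb of an annotated start, and overlapping peaks of the 2 libraries were merged into 1 site. A distal site lay over 1 kb from every annotated start and within 50 kb of the gene body. Replicate 1 had 47198 peaks and replicate 2 had 36523, and 28627 of 51618 merged sites held a peak in both. Peak values are the authors' signal, and how they were normalised is not stated. They came in whole steps, and the 95% intervals below assume that 1 step is 1 read and cover counting error only. With liver as bulk tissue, fewer cells of a type and less open chromatin per cell cannot be told apart. The erythroid marker list had a promoter peak in both libraries for 5 of 6 genes in the annotation, hepatoblast markers for 2 of 6, endothelial for 1 of 6, megakaryocyte for 1 of 5, macrophage for 0 of 5 and stem and progenitor markers for 4 of 6. Of the genes that define the hepatocyte lineage of the labelled liver, Alb and Apoa2 had no promoter peak in either library, while Foxa3 had 9.41 in replicate 1 and 4.33 in replicate 2 and Afp had 1.15 and 0.624.

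All 9 members had a promoter peak in both libraries, against 54.1% of protein-coding genes. The members' median promoter value was 6.27 in replicate 1 and 3.80 in replicate 2, and that of all genes open in both was 5.79 and 3.67. The members were thus open throughout, at heights near those of other open promoters. Their rank ran from Lyl1, at the 92.8th percentile of open promoters by mean log value, and Cbfa2t2, at the 90.5th, down through Tcf3 (69.2), Tal1 (62.7), Ldb1 (49.1), Lmo2 (43.8), Lmo4 (39.0) and Cbfa2t3 (33.2) to Tcf12, at the 27.8th. Neighbours in this order such as Lmo2 and Lmo4 changed places between the libraries. Their values were 4.25 and 4.81 in replicate 1, with overlapping intervals (3.81 to 4.72 and 4.34 to 5.31), and 3.80 and 2.65 in replicate 2. Counting intervals also overlapped in both libraries for the neighbours Lyl1 and Cbfa2t2 and for Tcf3 and Tal1.

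**Figure D1:**
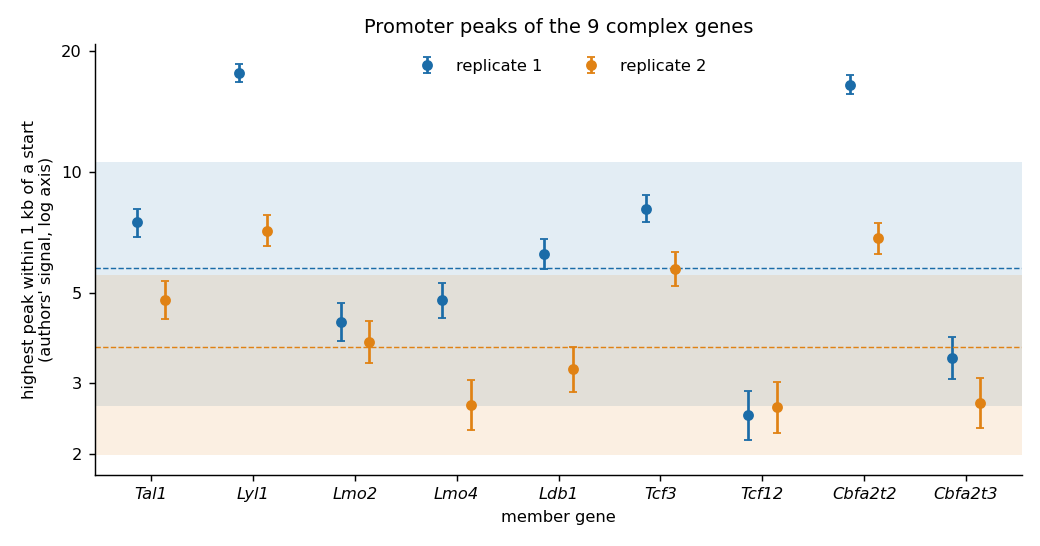
Highest peak within 1 kb of a start for each member (authors' signal, log axis), with blue for replicate 1, orange for replicate 2 and bars for the 95% Poisson interval. Shaded bands span the quartiles and dashed lines mark the medians (5.79 and 3.67) of all genes open in both libraries. Lyl1 and Cbfa2t2 lie above both bands, and Tcf12 lies below the blue band in replicate 1.

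The 9 genes also differed in the open sites around them. Together they had 34 distal sites called in both libraries, with 26 more called in replicate 1 alone and 1 in replicate 2 alone. The 34 comprised 8 for Lyl1, 7 for Cbfa2t3, 6 for Tal1, 5 for Tcf3, 3 for Tcf12, 2 for Cbfa2t2 and 1 each for Lmo2, Lmo4 and Ldb1. Having at least 1 such site was usual, in 54.5% of protein-coding genes. As many sites as Lyl1 had were found in 0.853% of genes, as many as Cbfa2t3 in 1.44%, as many as Tal1 in 2.51% and as many as Tcf3 in 4.67%. These ranks rest on the longer list and the 50 kb limit: the shorter list left Tal1 with 2 shared distal sites, and within 20000 bases Lyl1 and Cbfa2t3 had 4 each and Tcf3 had 3. With the limit at 100 kb, as many as Lyl1 had were found in 3.28% of genes, as many as Cbfa2t3 in 1.35%, as many as Tal1 in 8.58% and as many as Tcf3 in 5.21%. The shared distal sites of the members, pooled, were also taller, with a median of 2.68 in replicate 1 and 1.98 in replicate 2, against 1.40 and 1.05 over the 11248 distal sites called in both libraries. In replicate 1, every such site of Tal1, Lyl1, Ldb1, Tcf3 and Cbfa2t3 was above 1.40. Those of Tcf12 and Cbfa2t2 lay on both sides of it, and the single sites of Lmo2 (1.26) and Lmo4 (0.444) were below. The 24 shared sites at the members' own starts, with medians of 3.30 and 2.52, stood close to the 3.34 and 2.41 of all sites at protein-coding starts.

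**Figure D2:**
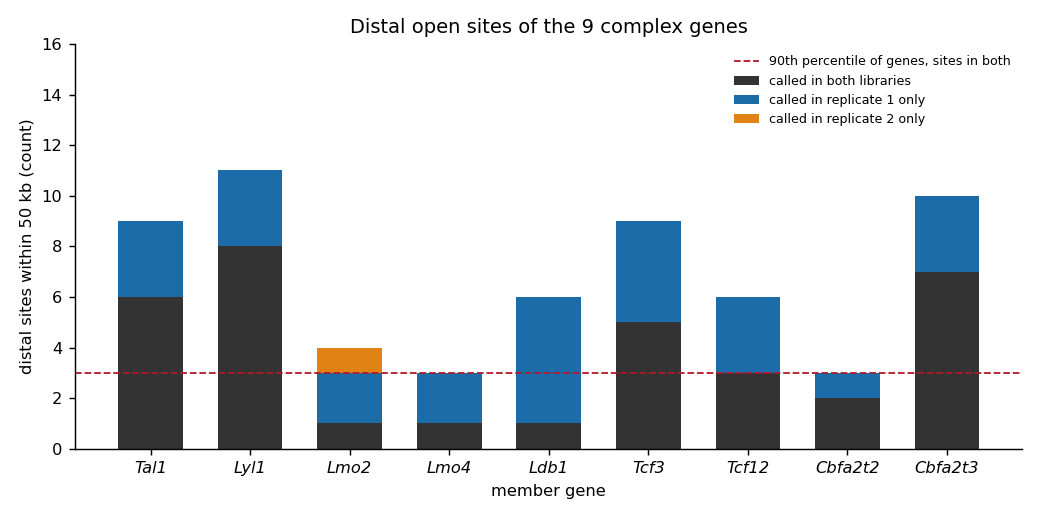
Distal sites within 50 kb of each member (count), stacked by whether both libraries, replicate 1 only or replicate 2 only called a peak. The dashed line is the 90th percentile of sites in both libraries over all protein-coding genes, which the dark segments of Tal1, Lyl1, Tcf3 and Cbfa2t3 pass.

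The composite was searched, on both strands of the 200 bases at the centre of each site, as the letters CTG, then 7 or 8 bases, then AGATAA or TGATAA. It was present in 6 of the 34 shared distal sites (17.6%), against 5.45% of all shared distal sites, and in 2 of the 24 shared sites at own starts (8.33%), against 0.932% of sites at protein-coding starts. Of these, 4 of the distal ones and 1 at a start belonged to Cbfa2t3, and without that gene the distal count was 2 of 27 (7.41%). A GATA motif alone (GATA with A or T before it and A or G after it, which a composite also contains) was present in 10 of the 34 (29.4%), close to 34.7% of all shared distal sites. An E-box, CAGNTG, was present in 19 of the 34 (55.9%), against 51.0%. The 44 sites near the members that lay at the start of another gene held no composite. Each match is a description of letters and does not show that a protein was bound.

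The composites gathered at 3 of the 9 genes. Counting a Tal1 site called in replicate 1 alone, there were 10 matches in 9 sites, and none lay in a shared site of Lmo2, Lmo4, Ldb1, Tcf3, Tcf12 or Cbfa2t2. Of the 10 matches, 8 had a spacer of 8 bases and 2 a spacer of 7. Footprints, the short stretches protected from cutting within a peak, touched 8 of the 10 in replicate 1, 4 in replicate 2 and 4 in both. A touch is an overlap by at least 1 base of the match, spacer included. Of the 4, only the Tal1 match had its GATA end touched in both libraries. Over all shared distal sites, 15.1% of composites were touched by a footprint in both libraries, and among the 7 in shared distal sites of members the share was 42.9%, or 3 matches. These lay at Tal1 and, for the most part, at Cbfa2t3. The 2 shares were not matched for peak height, and the members' distal sites had the higher median values, as given above. Footprints also covered more of the members' distal windows in general, 21.2% of bases in replicate 1 and 13.5% in replicate 2, against 15.5% and 9.60% over all shared distal sites. The matches are printed 5′ to 3′ on their own strand, from the RefSeq copy of GRCm38.p6, with the CTG and the GATA letters in capitals and the spacer in lower case. The sequence of the spacer differed in every match.

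Tal1, 8.05 kb upstream (chr4:115048356-115048372, plus strand): CTGcggaaataAGATAA
Tal1, 39.5 kb downstream (chr4:115095965-115095981, plus strand): CTGgtagaaacTGATAA
Lyl1, at the start (chr8:84701643-84701659, minus strand): CTGgccgcggcTGATAA
Lyl1, 29.5 kb downstream (chr8:84730908-84730923, minus strand): CTGgtggctcTGATAA
Lyl1, 29.5 kb downstream (chr8:84730979-84730995, minus strand): CTGtgaacaggAGATAA
Cbfa2t3, 32.6 kb downstream (chr8:122666479-122666495, minus strand): CTGccaggcttAGATAA
Cbfa2t3, 13.5 kb downstream (chr8:122685641-122685656, minus strand): CTGgctccagTGATAA
Cbfa2t3, at the first start (chr8:122699211-122699227, plus strand): CTGtgtcacagTGATAA
Cbfa2t3, 20.8 kb upstream (chr8:122719929-122719945, plus strand): CTGtgagaagaAGATAA
Cbfa2t3, 21.4 kb upstream (chr8:122720552-122720568, plus strand): CTGcgcgggcaAGATAA

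Tal1, the bHLH protein that gives the complex its name, lies on chromosome 4 from 115056426 to 115071755 on the plus strand. Its tallest site was not at a promoter but in the intergenic sequence 39.5 kb downstream of the first start, at chr4:115095681-115096160. In mouse, an erythroid enhancer of Tal1 has been described downstream of the gene, beyond its neighbour Pdzk1ip1. This site had a value of 12.6 in replicate 1 (95% interval 11.8 to 13.4) and 6.14 in replicate 2 (5.58 to 6.74). It exceeded the promoter peak, 7.50 and 4.82, by 1.68-fold in replicate 1 and 1.27-fold in replicate 2, and the intervals of the 2 sites did not overlap in either library. The deposited false discovery rate of cutting reached a log10 of -34.7 in replicate 1 and -16.2 in replicate 2, and it was listed for all 480 bases of the site in both. Each library had 12 footprints there.

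Capitals in the 200-base stretches printed from here on mark GATA motifs, E-boxes and the CTG and GATA parts of composites, all read on the plus strand of GRCm38, where a motif of the minus strand appears as its complement. The distal site is shown because it is the tallest of Tal1 and holds a composite that footprints touched in both libraries.

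Tal1, 39.5 kb downstream (chr4:115095816-115096015): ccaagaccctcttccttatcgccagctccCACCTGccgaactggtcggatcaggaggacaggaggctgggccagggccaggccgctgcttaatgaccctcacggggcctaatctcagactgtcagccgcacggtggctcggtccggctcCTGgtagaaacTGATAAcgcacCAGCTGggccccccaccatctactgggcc

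Within this stretch, the footprint over the composite ran from 115095976 to 115095984 in replicate 1 and from 115095975 to 115095990 in replicate 2. It covered 6 and 7 of the composite's 17 bases, and in both libraries these included the whole GATA end and none of the CTG end. A second footprint in each library overlapped an E-box on the minus strand, 115095845 to 115095850, and an ETS motif (CCGGAA or AGGAAG) was also touched in both.

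**Figure D3:**
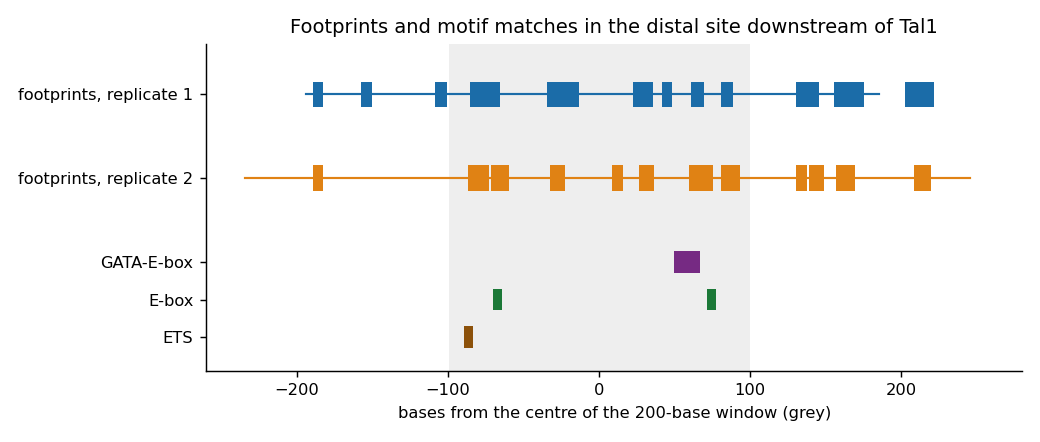
The distal site 39.5 kb downstream of Tal1, by distance in bases from the centre of the 200-base window (grey). Thin lines are the highest peak of each library and blocks its footprints over the whole merged site, above the positions of motif matches. The GATA-E-box block overlaps a footprint in both rows of 12 footprints.

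At its own starts Tal1 had 3 shared sites. The site 0.24 kb downstream of the first start, the promoter peak given above, held 7 and 3 footprints in replicates 1 and 2, with an AGATAA match on the minus strand touched by a footprint in both. The site at 1.19 kb had 1.93 and 2.43, and that at 3.06 kb had 2.98 and 2.63. Replicate 2 alone had a further peak of 1.43 at 2.86 kb, where the deposited rate was also listed in replicate 1. These internal starts were thus lower than the first start in both libraries. Among the other shared distal sites, one 8.50 kb upstream had 6.68 and 4.08, and one 29.3 kb downstream had 2.96 and 1.93. The replicate 1 site with a composite, 8.05 kb upstream, was small, at 1.49.

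Lyl1, the relative of TAL1, had the tallest promoter peak of the 9, though its interval overlapped that of Cbfa2t2. The gene is short, on chromosome 8 from 84701457 to 84704715. Its promoter site, at chr8:84701541-84701880, had 17.7 in replicate 1 (95% interval 16.8 to 18.6) and 7.17 in replicate 2 (6.56 to 7.81). These values stood at the 98.6th and 96.9th percentiles of all peaks of their libraries. The composite at this site lay within annotated untranslated sequence, and footprints covered all 17 of its bases in replicate 1 and 9 in replicate 2. A small upstream site, 0.282 kb before the start, was called in replicate 1 alone, at 1.53.

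Of the 8 shared distal sites of Lyl1, the 3 tallest were at 29.5 kb, 7.89 kb and 3.10 kb downstream. They had 6.78 and 3.27, 6.01 and 3.98, and 5.75 and 3.58 in replicates 1 and 2. The first and second lie in introns of Nfix, a neighbouring transcription factor gene, and the distances alone do not say which gene a site serves. The site at 29.5 kb, chr8:84730741-84731160, is shown because it alone among the members' sites held 2 composites. Both were touched by footprints in replicate 1 only, where 10 footprints were called in the site, against 4 in replicate 2.

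Lyl1, 29.5 kb downstream (chr8:84730891-84731090): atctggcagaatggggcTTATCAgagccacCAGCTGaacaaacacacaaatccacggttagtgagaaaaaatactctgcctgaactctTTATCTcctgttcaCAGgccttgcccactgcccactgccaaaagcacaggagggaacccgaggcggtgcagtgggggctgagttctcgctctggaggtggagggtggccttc

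Lmo2, the LIM-only bridge between TAL1 and GATA factors, lies on chromosome 2 from 103957986 to 103981878 and is known for separate distal and proximal promoters. Both carried peaks in both libraries. Near the first start, a site 0.91 kb upstream had 4.25 in replicate 1 and 2.13 in replicate 2, and one 0.137 kb upstream had 2.86 and 2.20. At the internal starts, a site 11.6 kb downstream had 3.76 and 3.80, one at 12.4 kb had 1.37 and 1.19, and another at 12.8 kb was called in replicate 1 alone, at 1.18. Within 1 kb of the starts, which promoter was higher differed between the libraries: the first had the taller peak in replicate 1 and the internal one in replicate 2. The lead in replicate 1 rested on the site 0.91 kb upstream. With a limit of 500 bases that site dropped out, and the internal promoter was higher in both libraries. The site 0.137 kb upstream is shown for its 4 GATA motifs, the most in any shared site of a member. None of the 4 was touched by a footprint in either library, and no composite was present.

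Lmo2, 0.137 kb upstream (chr2:103957749-103957948): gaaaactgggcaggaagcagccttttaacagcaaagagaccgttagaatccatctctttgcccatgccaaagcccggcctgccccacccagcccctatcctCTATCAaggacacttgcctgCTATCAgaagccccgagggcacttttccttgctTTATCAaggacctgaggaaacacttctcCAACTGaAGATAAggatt

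Lmo2 had only 1 shared distal site within 50 kb, 44.9 kb downstream of the first start with 1.26 and 1.16, but more farther out. Widening the search to 100 kb raised its count to 9 shared sites, a number that 2.12% of protein-coding genes reached. Of the 8 added sites, 6 lay upstream and 2 downstream. In mouse, enhancers active in blood cells have been described far upstream of Lmo2. The tallest of the added sites, 64.0 kb upstream at chr2:103893821-103894120, had 5.53 in replicate 1 and 1.97 in replicate 2, so it was taller than every promoter peak of the gene in replicate 1, whereas in replicate 2 it was lower than both peaks near the first start and the 3.80 of the internal promoter. Next to it lay sites at 62.6, 61.6 and 60.9 kb upstream, with 1.37 and 1.14, 1.89 and 1.52, and 2.32 and 1.50. Of the 8, 4 held a GATA motif and 0 a composite. These sites were singled out after their values were seen.

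Lmo2, 64.0 kb upstream (chr2:103893891-103894090): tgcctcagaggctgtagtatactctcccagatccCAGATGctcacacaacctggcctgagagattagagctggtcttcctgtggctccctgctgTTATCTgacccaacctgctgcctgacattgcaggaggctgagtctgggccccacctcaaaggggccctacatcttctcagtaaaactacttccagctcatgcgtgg

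**Figure D4:**
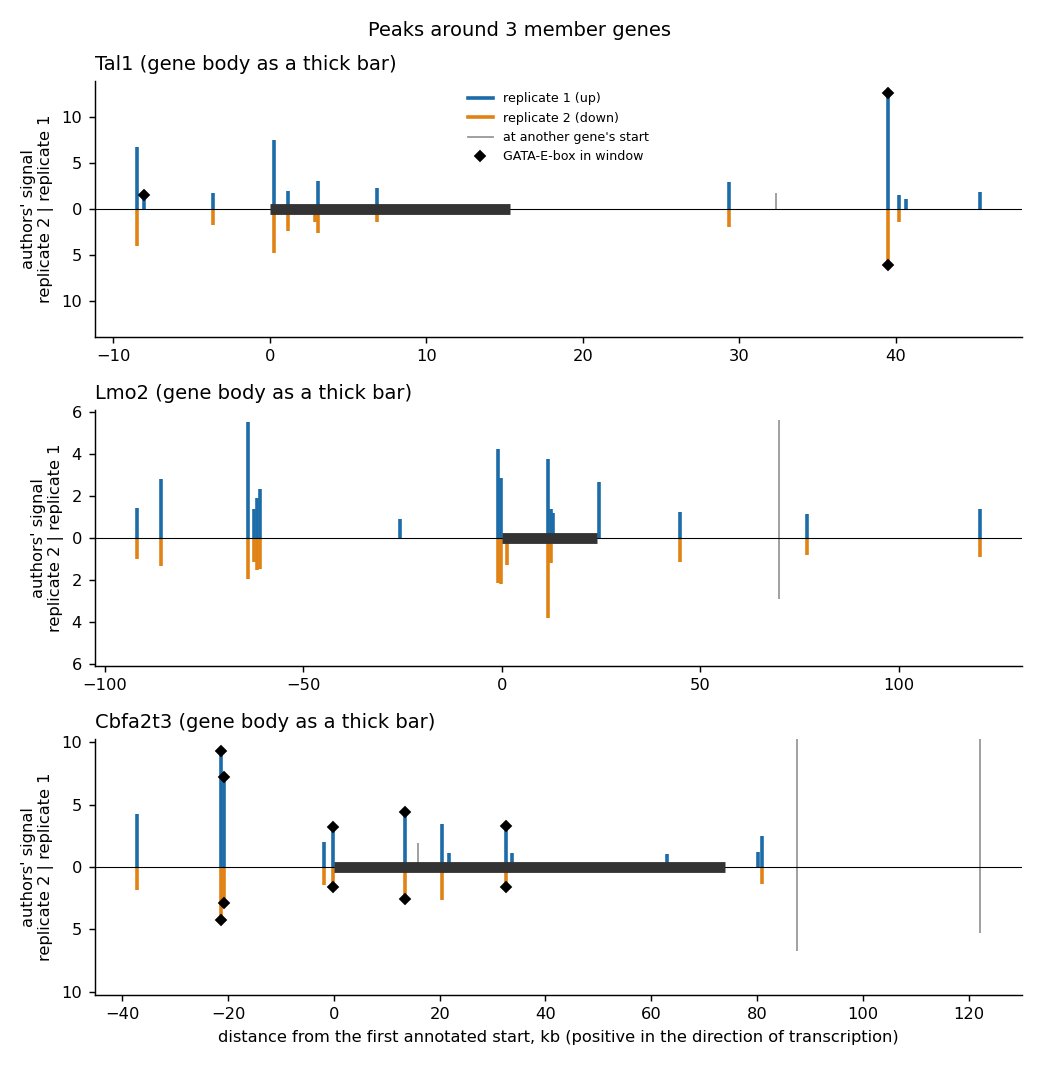
Peak values (authors' signal) around Tal1, Lmo2 and Cbfa2t3 by distance from the first start in kb, with replicate 1 drawn up and replicate 2 drawn down from the zero line; grey lines, cut off where taller than the panel, are peaks at other genes' starts. Black diamonds mark a composite in the window: they cap the tall site 39.5 kb from Tal1, a small one upstream of it and 5 shared sites of Cbfa2t3, and there are none at Lmo2, whose upstream sites are drawn out to 100 kb.

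Lmo4, another LIM-only protein that binds LDB1, lies on chromosome 3 and had open chromatin packed at its starts. Its 5 shared sites there had 3.36 and 2.65 at 2.78 kb downstream of the first start, 0.653 and 0.624 at 1.80 kb, 1.38 and 1.21 at 0.464 kb, 2.25 and 2.08 at the start itself and 4.81 and 2.61 at 0.361 kb upstream. Replicate 2 alone had a peak of 1.21 at 3.29 kb, over a stretch where the rate was listed in replicate 1 too. Away from its starts it had 1 shared site, 37.0 kb upstream, with 0.444 and 0.652, among the lowest of the members' sites.

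Ldb1, the dimerising scaffold, lies on chromosome 19 and was taller at an internal start than at its first. The site 5.50 kb downstream had 6.27 in replicate 1 and 3.24 in replicate 2, against 2.16 and 2.01 for the site at the first start, which also lies within 1 kb of a start of Pprc1. Peaks at 8.53, 6.13 and 0.418 kb, of 1.32, 1.04 and 1.24, were called in replicate 1 alone. The shared distal site of Ldb1, 30.4 kb downstream, had 3.54 and 2.16. Another 5 distal sites were called in replicate 1 alone. Among them an intronic one at 7.86 kb, with 2.21, held 3 GATA motifs, 1 of them touched by a footprint. It was picked out after its letters were seen.

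Tcf3, which encodes the E proteins E12 and E47, partners of TAL1 in the dimer, lies on chromosome 10 and had a broad promoter. Its sites 0.079 and 0.454 kb upstream of the first start had 8.12 and 5.75, and 7.70 and 3.60, in replicates 1 and 2. A site 0.530 kb downstream had 1.59 and 0.998, and a peak of 1.44 at 0.310 kb was called in replicate 1 alone. An internal start 11.8 kb downstream had 3.77 and 2.25. The 3 tallest of its 5 shared distal sites were at 9.89 kb downstream, in an intron, with 7.70 and 2.84, at 57.3 kb downstream with 5.35 and 2.88, and at 12.8 kb upstream with 2.39 and 2.18. The intronic site was almost as tall as the promoter in replicate 1, 0.948-fold, but 0.494-fold in replicate 2. It held neither a GATA motif nor an E-box. Its window held near copies of a short stretch that recurs in the windows of other distal sites of Tcf3, including another shared site. Whether reads can be placed uniquely in such sequence was not tested. This limit applies to the number of distal sites of Tcf3 and to the values of the intronic site.

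Tcf12, which encodes the E protein HEB, is the longest member at 269.2 kb on chromosome 9, and had the lowest promoter value of the 9, although in replicate 2 its interval overlapped those of Lmo4, Ldb1 and Cbfa2t3. The first start had 2.49 in replicate 1 and 2.61 in replicate 2, and the site 0.605 kb inside had 1.69 and 2.01. A peak of 1.16 at 1.04 kb was called in replicate 2 alone, with a listed rate in replicate 1. A site 21.4 kb upstream, with 29 CpG dinucleotides in its window, had 2.61 and 3.09, about the height of the promoter. The 2 other shared distal sites lay 279.9 and 305.3 kb from the first start, past the end of the gene, with 1.66 and 1.80, and 1.22 and 0.735.

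The 2 corepressor genes differed in arrangement. Cbfa2t2, which encodes the ETO family member MTGR1, lies on chromosome 2 and had a tall promoter with little around it. Its site 0.155 kb upstream of the start, chr2:154436161-154436440, had 16.5 in replicate 1 (95% interval 15.6 to 17.4) and 6.86 in replicate 2 (6.27 to 7.49). A log10 rate of -101 in replicate 1 and -63.9 in replicate 2 was lower than that of any other site near the members' own starts or distal to them. A peak of 2.15 at 0.230 kb downstream was called in replicate 2 alone, over a stretch with a listed rate in replicate 1. Its 2 shared distal sites were low, 0.616 and 0.471 at 27.4 kb downstream and 1.70 and 0.915 at 150.1 kb. The promoter is shown as the counterpart of the distal sites: in place of GATA motifs and E-boxes, of which it had none, it held 31 CpG dinucleotides, against 10 in the window of the Tal1 site.

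Cbfa2t2, 0.155 kb upstream (chr2:154436226-154436425): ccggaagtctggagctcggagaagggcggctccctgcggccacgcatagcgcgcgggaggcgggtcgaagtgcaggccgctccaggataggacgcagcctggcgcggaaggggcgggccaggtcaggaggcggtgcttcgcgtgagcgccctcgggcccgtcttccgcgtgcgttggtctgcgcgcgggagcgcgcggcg

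Cbfa2t3, which encodes ETO2, lies on chromosome 8 from 122625141 to 122699109 on the minus strand and had the opposite arrangement, a low promoter among tall distal sites. At its starts, the site 20.4 kb inside the gene had 3.46 and 2.68, and that at the first start, 0.093 kb upstream, had 3.24 and 1.59. A peak of 1.13 at 21.8 kb was called in replicate 1 alone. A pair of sites upstream was taller. The one at 21.4 kb, chr8:122720421-122720640, had 9.33 in replicate 1 and 4.28 in replicate 2, which is 2.69-fold and 1.60-fold the tallest peak at its own starts. Its neighbour at 20.8 kb had 7.26 and 2.91. Inside the gene, a site at 13.5 kb had 4.39 and 2.54, and another with a composite, at 32.6 kb, had 3.33 and 1.62.

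Of the 7 shared distal sites of Cbfa2t3, 6 held a GATA motif and 4 a composite, and the site at its first start held a composite too. Footprints touched the composites at 21.4 kb upstream and at 32.6 kb downstream in both libraries, the one at the first start in replicate 1 only, and those at 20.8 kb upstream and 13.5 kb downstream in neither. The GATA end of the composite was touched in replicate 1 only at 21.4 kb upstream, and in replicate 2 only at 32.6 kb downstream. At 20.8 kb, a footprint in both libraries instead touched an E-box that overlaps another GATA motif upstream of the composite in the window. The annotation also places these sites within the span of Gm20388, a long gene model that also spans Piezo1. Within 100 kb the shared distal sites of Cbfa2t3 numbered 10, a number that 1.35% of genes reached, and 1 of the 3 added sites, 161.1 kb downstream with 2.18 and 1.14, held a composite. The site at 21.4 kb is shown as the tallest of Cbfa2t3.

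Cbfa2t3, 21.4 kb upstream (chr8:122720431-122720630): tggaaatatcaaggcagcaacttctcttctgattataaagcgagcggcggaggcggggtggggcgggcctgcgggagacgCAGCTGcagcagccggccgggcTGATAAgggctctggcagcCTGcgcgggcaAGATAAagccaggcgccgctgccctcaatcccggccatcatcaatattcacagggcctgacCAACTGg

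Footprints at the members' sites were counted beside those of all shared sites. Among the 34 shared distal sites, 29 had at least 1 footprint in each library, where 75.7% of all shared distal sites did. At own starts it was 21 of 24, where 80.2% of sites at protein-coding starts did. Both counts lay near the background. Of the 26 distal sites called in replicate 1 alone, 5 overlapped a stretch with a listed rate in replicate 2 (19.2%), against 8.16% of such sites in the series. All 4 own-start sites called in replicate 2 alone had a listed rate in replicate 1, against 35.7% of such sites at protein-coding starts. None of the 7 called in replicate 1 alone had one in replicate 2, against 34.1%.

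The libraries were compared site by site, since replicate 1 had the higher value at most tall sites. From the log2 ratio of replicate 1 over replicate 2, the running median over shared sites of like height was taken off, and the rest is called the excess ratio. It was above 0 at 21 of the 34 distal sites (background 58.5%) and at 9 of the 24 own-start sites (background 43.9%), shares near the background. It passed the 90th percentile of sites of like height at 3 of the 34, or fewer than the 13.4% of all shared distal sites. The median over the 34 was 0.14, against 0.09 over all shared distal sites. Single genes went different ways. The excess ratio was above 0 at 7 of 7 distal sites of Cbfa2t3, from 0.08 to 0.66, and at 4 of 5 of Tcf3, where the intronic site 9.89 kb downstream had 0.77, the 98.5th percentile of sites of like height. It was below 0 at both own-start sites of Tcf12, -0.58 and -0.66, and at its site 21.4 kb upstream, -0.78, the 2.5th percentile. All 3 own-start sites of Tal1 were below 0 too, from -0.79 to -0.15, while its distal site at 39.5 kb stood at the 49.8th percentile.

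Sites with a composite or any GATA motif leaned to replicate 1 across the series. Over 613 shared distal sites with a composite the median excess ratio was 0.37, and it was above 0 in 79.8% of them, whereas over 10635 without one the median was 0.08 and the share 57.3%. With any GATA motif, 3905 sites had a median of 0.19 and 68.0% above 0, and the 7343 without one had 0.03 and 53.4%. Among the members, 5 of the 6 shared distal sites with a composite were above 0, from 0.20 to 0.66, and that of Tal1 lay just under 0. This share is near the 79.8% of the series. Of the 5, 4 were at Cbfa2t3, where all 7 shared distal sites were above 0 with or without a composite. The far upstream site of Lmo2, which has no composite, had 0.91, the 98.3rd percentile. These ratios set 1 library against 1 library, so they have no replicate check.

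**Figure D5:**
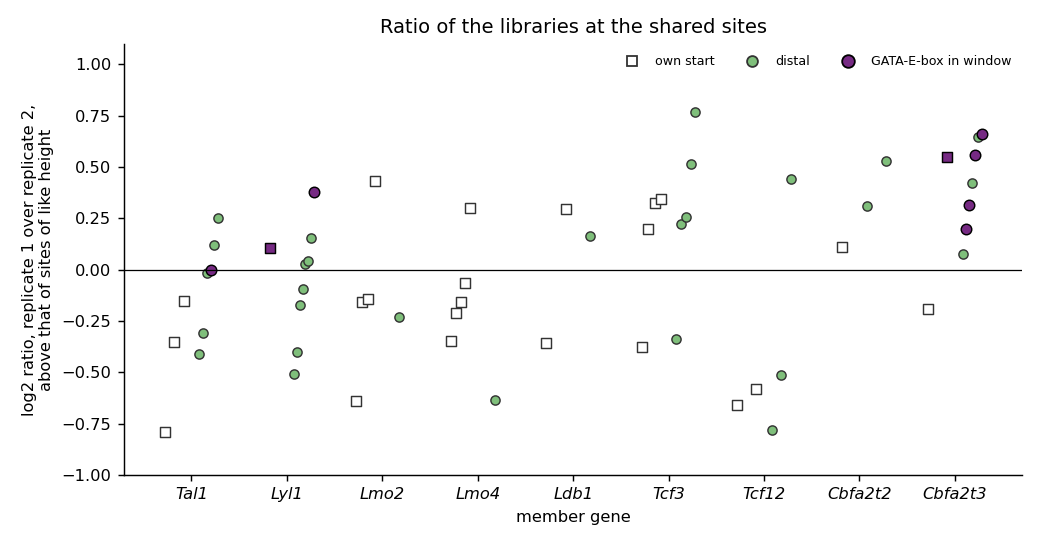
Excess ratio (log2, replicate 1 over replicate 2, after the running median of sites of like height was taken off) at each shared site of the members. Squares are sites at own starts, circles are distal sites and purple marks a composite in the window; position within a gene's column carries no meaning. The circles of Cbfa2t3 all lie above 0, and all but 1 of the points of Tcf12 lie below -0.5.

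Of 16 partners of the complex, 14 had a promoter peak in both libraries (87.5%), against 54.1% of protein-coding genes. The tallest were Zfpm1, the GATA cofactor FOG1, with 26.8 in replicate 1 and 12.2 in replicate 2, Rcor1, a corepressor of the LSD1 complex, with 20.8 and 8.03, and the histone deacetylase Hdac1, with 18.4 and 7.60. Gfi1b, a repressor gene of the red cell lineage, had a peak in replicate 1 alone, 2.05, and Gata2, the GATA factor of earlier progenitors, had none at its starts though 4 shared distal sites lay within 50 kb. Of 12 relatives outside the members, 7 were open in both (58.3%), near that background, led by Tcf4, the remaining E protein gene, with 4.81 and 3.16, then Id1 with 3.75 and 3.55 and Id2 with 3.81 and 2.37, which encode inhibitors of E proteins. Ldb2, the paralog of Ldb1, and Nhlh1 and Nhlh2, bHLH relatives of Tal1, had none. Of 10 erythroid targets, 9 were open in both, with Tfrc, the transferrin receptor, at 18.1 and 7.46, Epor, the erythropoietin receptor, at 15.3 and 6.39, and Slc4a1, the band 3 anion exchanger, at 9.49 and 3.44.

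Genes most like 3 of the members were sought by distance over 4 log2 measures, the promoter value and the number of distal sites in each library, among 11843 genes. Ssbp3, one of the LDB1-binding SSBP partners, came first for Tal1 at a distance of 0.115, with 7.76 and 5.18 and the same 9 and 6 distal sites, followed by Tmem189 at 0.118. For Lyl1 the nearest were Ppp2r1b at 0.242 and Rpia at 0.245, and for Lmo2 they were Vdac1 at 0.0771 and Coq10a at 0.0983. Such likeness was common, since 65 genes lay within a distance of 0.5 of Tal1, 29 of Lyl1 and 150 of Lmo2.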

How the data were processed

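DNase-seq of fetal mouse liver was measured in 2 libraries of 1 group, biological replicates 1 and 2 per the labels. Per the deposited text file with each sample, the authors made 4 tables from each library's own alignments to mm10 without pooling: peaks in 2 lists, one longer than the other, footprints, and stretches with their false discovery rate of cutting. The software and thresholds they used, and any scaling between libraries, are not stated there. The deposited peak value is a signal, the footprint score is a constant 0.01 so that only positions were used, and the q-value type rate is listed only under 0.05. Footprints can differ with the cutting bias of DNase I, and whether that was corrected is not stated either.

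The longer list was the main one. Peaks overlapping by at least 1 base became 1 site, using GENCODE vM21 starts and gene bodies, within 1000 bases for promoters and 50000 bases for distal sites. Signal steps were 0.0123 and 0.0139, and the values departed from whole steps by at most 0.00407 and 0.00489 of a step; read as 1 read per step this gives a depth of 81.2 and 72.1 on a scale of 1e6 reads, an assumption behind the Poisson intervals. A median peak would then hold 100 and 90 reads. Motifs were searched in 200 bases of the RefSeq GRCm38.p6 sequence, whose chromosome lengths hold every peak. Percentiles of open promoters cover genes with a promoter peak in both libraries. No test was run, since there is 1 group without a control; the spread between the replicates may be technical. The steps were tested on simulated data.

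The members, lists, motifs and naming rule were chosen with earlier results of these data known. The rule named all members, all sites at their starts, up to 3 of the tallest shared distal sites of each, all sites with a composite, and, per list, up to 3 genes with the tallest promoters and up to 3 without a promoter peak. Of 11 erythroid targets and 7 erythroid markers, Ahsp had no match in the annotation. Results were also recomputed from the shorter list, from the upper 50% of peaks, with other distances, overlaps, windows and motif definitions, and without each replicate. Python 3.11.15, numpy 2.4.6, pandas 2.3.3, scipy 1.17.1 and matplotlib 3.10.9 were used.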

Additional observations from a re-analysis of the deposited data

How the results depend on the processing

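All 9 members kept a promoter peak under every alternative, and without replicate 1 or without replicate 2. Their median promoter value over both libraries, 5.04, ran from 3.80 to 6.27 in single libraries. The 34 shared distal sites became 21 with the shorter peak list and 18 within 20000 bases, and 35 to 60 when 1 replicate was left out and the other's sites were all counted; replicate 1 alone gave the 60. Within 100000 bases there were 50, 9 of them at Lmo2, which had 1 within 50000, and without Lyl1 there were 26. The 50 of 58 shared sites with a footprint in both libraries became 55 of 63 in replicate 2 alone and 80 of 91 in replicate 1 alone. The 6 distal sites with a composite ran from 6 of 35 to 7 of 60 when a replicate was left out, so the share was 11.7% in replicate 1 alone against 17.6% in both. They were 6 or 7 with the shorter list, the upper 50% of peaks, and the peak itself or 300 bases as the window, including all 6 among the 21 sites of the shorter list. A different rule, a GATA motif and a CAGNTG E-box anywhere in the window, also gave 6 of 34, but not the same sites. It took in sites of Tcf3 and Cbfa2t3 without a composite and left out composite sites of Cbfa2t3 that had no E-box. The share for this rule over all shared distal sites was not computed. Without Cbfa2t3, an alternative chosen after seeing the data, the composite sites were 2 of 27 (7.41%), against 5.45% of all shared distal sites. The median excess ratio of 0.14 was 0.13 with shorter or longer running medians, also added later. Of values for single members, 17 moved and 55 did not; the 17 were all counts of distal sites, and promoter values did not change except that of Lmo2, 3.78 over both libraries within 500 bases against 4.02 within 1000. Tal1 fell to 2 shared distal sites with the shorter list, and within 20000 bases Lyl1 and Cbfa2t3 fell to 4 and Tcf3 to 3. The upper 50% of peaks by value left Lmo2, Lmo4 and Cbfa2t2 with 0 shared distal sites. No paired analysis was possible because there is only 1 group. With 2 libraries of unknown scaling, intervals and percentiles describe these libraries, and a site called in 1 library may lie just under the other's threshold.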
